A study of Homo sapiens with 10 samples.

Results

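The regions described here are 17236 stretches of chromatin that carried the enhancer mark H3K4me1 in SKBR3 cells and for which no such stretch was listed in BT474 cells. They were taken from the 72888 islands of H3K4me1 listed for the first SKBR3 replicate, and made up 23.6% of them. An island is a run of neighbouring 200 bp windows with more reads than the background. It was kept when it overlapped an island of the second SKBR3 replicate by at least 1 bp and no island of either BT474 replicate. These islands are called SKBR3-only below, which says where islands were listed and not that BT474 chromatin lacked the mark. SKBR3 and BT474 are established human breast cancer cell lines from ATCC, and both carry extra copies of ERBB2, the gene for the receptor tyrosine kinase HER2. H3K4me1 was mapped by ChIP-seq, with 2 replicates for each line. The sample labels call these cells asynchronous, while the text of the study speaks of EGF treatment. HER2 itself was mapped by ChIP-exo in both lines after 3 hours of vehicle (water) or of EGF at 100 ng/ml, with 1 sample per condition. No sources used here say whether the H3K4me1 replicates came from separate cultures, so their spread may be technical.

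Monomethylation of lysine 4 on histone H3 is laid down mainly by the KMT2C and KMT2D methyltransferases. It marks active and poised enhancers and the flanks of active promoters, and it differs between cell types far more at enhancers than at promoters. In breast cells, enhancers are opened by transcription factors such as AP-1, TEAD, TFAP2, GATA and forkhead proteins. BT474 is known as an oestrogen receptor positive line and SKBR3 as a receptor negative one. The progesterone receptor gene PGR, a target of that receptor, is a check of the lines. H3K4me1 islands covered 4.4 and 4.2 kb of PGR and its 10 kb upstream in the SKBR3 replicates, and 98.8 and 96.6 kb in the BT474 replicates. ERBB2 was covered almost throughout in every replicate, by 51.5 and 51.3 kb in SKBR3 and by 52.5 and 52.5 kb in BT474. Neither gene held an SKBR3-only island, as measured in the same windows.

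Sequence stretches from SKBR3-only islands are shown to make the motifs described later visible. The first 5 come from genes with no BT474 island in the gene or the 10 kb before it, and each is centred on a match to TGAGTCA, the letters bound by AP-1, read on either strand. They were chosen after their values were seen and for holding a match. The KRT14 island of 8.2 kb, in a gene of the same kind, held 0 AP-1 and 9 TEAD matches and is not printed. Each printed stretch is 101 bases of the plus strand of GRCh37, lies in an intron, and has matches to AP-1 (TGAGTCA) and to TEAD (GGAATG) in capitals.
KRT17 (chr17:39780084-39780184): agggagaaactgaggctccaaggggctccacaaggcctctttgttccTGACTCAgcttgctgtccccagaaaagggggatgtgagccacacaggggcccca
PKP3 (chr11:393327-393427): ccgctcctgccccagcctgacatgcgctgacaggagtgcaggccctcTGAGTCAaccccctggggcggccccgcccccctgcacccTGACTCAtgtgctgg
ADAM19 (chr5:156973457-156973557): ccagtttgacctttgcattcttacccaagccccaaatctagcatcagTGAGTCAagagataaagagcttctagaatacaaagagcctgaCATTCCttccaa
L3MBTL4 (chr18:6156617-6156717): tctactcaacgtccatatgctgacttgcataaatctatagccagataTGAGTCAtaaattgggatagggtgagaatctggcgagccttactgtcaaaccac
TSHZ2 (chr20:51929880-51929980): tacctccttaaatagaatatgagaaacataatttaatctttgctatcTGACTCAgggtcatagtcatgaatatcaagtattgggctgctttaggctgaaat
The KRT17 stretch lies 0.96 kb inside the keratin gene, in an island of 3.4 kb with 110 reads. The PKP3 stretch holds 2 AP-1 matches within its 101 bases. The ADAM19 island of 13.4 kb held 3 AP-1 and 10 TEAD matches, and the TSHZ2 island of 100.4 kb held 12 and 73. These counts are not scaled to island width, so they do not show that matches were frequent there.
The next sequence is the middle of a HER2 peak in an SKBR3-only island, in an intron of SMCO4. The capitals mark CGTNTGC, the letters that the study gave as the core of its HER2 motif, read on the minus strand. This peak was chosen for holding the core, which 10 of the 84 SKBR3 EGF peaks in SKBR3-only islands held.
SMCO4 (chr11:93232094-93232194): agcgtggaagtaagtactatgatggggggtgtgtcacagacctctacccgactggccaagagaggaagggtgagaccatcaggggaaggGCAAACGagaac

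The rule uses the presence of islands, so the width and reads of the SKBR3-only islands are a description. Counted from replicate 2, there were 16944 such islands, or 24.1% of its 70251. The mean over both countings was 17090 ± 206 islands (SD, n = 2). The countings share the same 4 lists, so this SD covers the choice of the replicate and not a new experiment. The islands held 17.5% ± 0.12 of the bases and 14.3% ± 0.046 of the reads in SKBR3 islands. They were thus narrower and thinner than the rest. Their median width was 2600 bp from replicate 1 and 2800 bp from replicate 2. It was 3800 bp in each replicate for islands listed in all 4 libraries, 42121 in replicate 1. Wide islands had more chances to touch a BT474 island, which is a property of the rule. The median SKBR3-only island held 95 reads in replicate 1, with a range from 31 to 18384, and 96 in replicate 2. Per kb of island, the median was 37.2 ± 0.82 reads for SKBR3-only islands and 42.2 ± 1.05 for islands in all 4 libraries. The reverse class, 31483 islands of BT474 replicate 1 listed in both BT474 and in neither SKBR3 library, was narrower still, with a median of 1900 ± 141 bp. The reads behind these values, summed over islands, were 15636057 and 15314195 in SKBR3 and 18714089 and 15097245 in BT474.

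**Figure D1:**
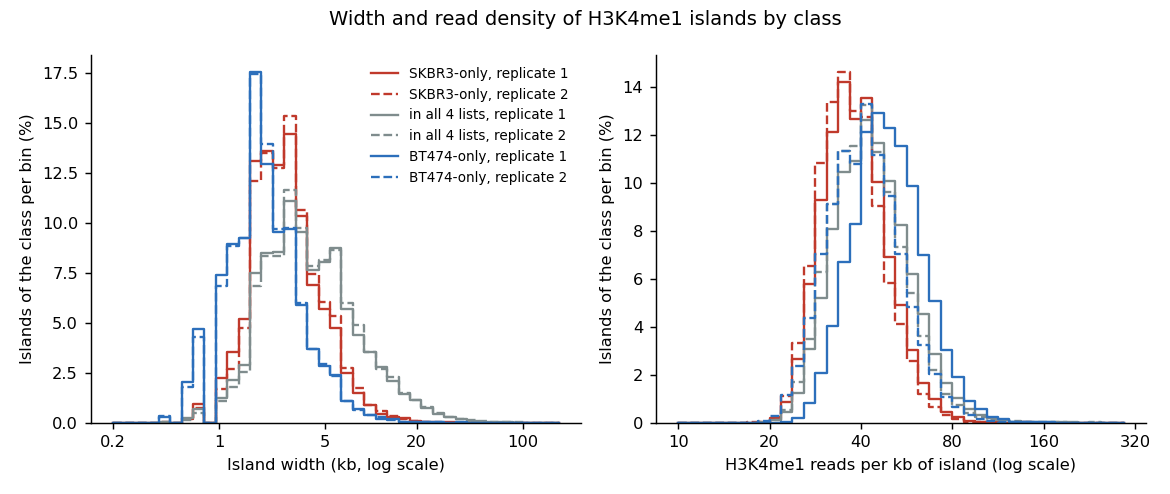
Distribution of island width in kb (left) and of H3K4me1 reads per kb of island (right), both on log axes, as the percentage of islands of each class per bin; solid lines are replicate 1 and dashed lines replicate 2 of the line in which the islands were listed. The median width of SKBR3-only islands (red) lies between those of BT474-only islands (blue) and islands in all 4 libraries (grey). The width curves of SKBR3-only islands and of islands in all 4 libraries peak in the same bin, from 2.69 to 3.2 kb. SKBR3-only islands have the lowest median reads per kb.

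The rule required an island of the second SKBR3 replicate, which 63494 (87.1%) of the 72888 islands met, so the cover by that replicate is a description of the islands kept. Of the 17236 islands, 16746 met a single island of replicate 2 and 490 met several. A median of 92.3% of the island was covered in replicate 2, 42.0% of islands were covered whole, and 763 (4.43%) were covered by less than 50%. Reads per kb, scaled to the reads of each library, differed between replicates by a median of -0.01 on the log2 scale with an SD of 0.32 over islands. The rank correlation of reads per kb over the islands was 0.535, a description over 17236 islands that share their libraries. Few islands lay at the edge of the rule. In 15 islands replicate 2 covered a single window of 200 bp, with a median of 30 reads per kb, and 107 had a BT474 island within 200 bp, with a median of 34.4. Just outside, 80 islands of both SKBR3 replicates were met by BT474 in a single window, with a median of 34.3 reads per kb.

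BT474 islands were close by in most cases. The median distance from an SKBR3-only island to the nearest BT474 island was 8.8 kb, with quartiles of 3.6 and 21.2 kb. Of the islands, 94.4% (95% Wilson interval 94.1 to 94.7%) were more than 1 kb away, 45.6% (44.9 to 46.4%) more than 10 kb and 3.40% (3.14 to 3.68%) more than 100 kb. The intervals cover counting error alone. Of the SKBR3-only islands, 43.2% were the sole such island between neighbouring BT474 islands.

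The share of SKBR3 islands that were SKBR3-only was lowest beside the start sites of protein-coding genes and rose with distance. It was 13.8% ± 0.23 (SD, n = 2) for islands that held a start site, 9.63% ± 0.24 for those up to 1 kb away, 24.0% ± 0.22 from 1 to 10 kb, 28.0% ± 0.56 from 10 to 100 kb and 31.5% ± 1.55 beyond 100 kb. The order was the same when only islands 2 to 4 kb wide were compared, with 19.0% ± 1.16, 11.6% ± 0.59, 27.5% ± 0.17, 32.8% ± 0.98 and 36.0% ± 2.25. The last 2 groups differed by less than 2 SD of the farthest group at that width. The step from 1 kb to farther away was many times the spread between replicates.

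**Figure D2:**
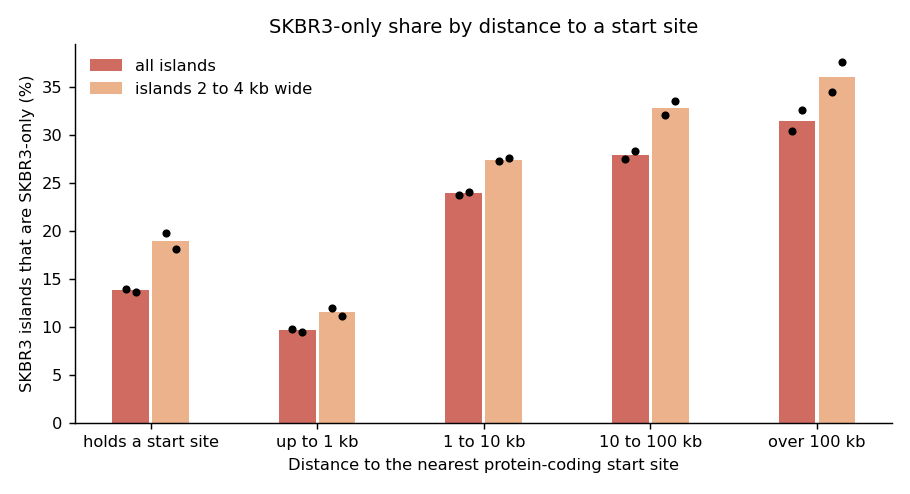
Percentage of SKBR3 H3K4me1 islands that were SKBR3-only (vertical axis) by the distance from the island to the nearest protein-coding start site (horizontal axis). Bars are means over islands counted from replicate 1 and replicate 2, points are these 2 values; the share runs from 9.63% up to 1 kb to 31.5% beyond 100 kb.

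Seen from the islands, 11.6% ± 0.091 of the SKBR3-only islands lay within 1 kb of a protein-coding start site, against 29.2% ± 0.21 of islands in all 4 libraries and 17.5% ± 0.13 of the BT474-only islands. With the start sites of all annotated genes the shares were 19.5% ± 0.22, 38.3% ± 0.17 and 22.9% ± 0.064. The median distance to a protein-coding start site was 23.2 ± 0.39 kb for SKBR3-only islands and 9.89 ± 0.062 kb for islands in all 4 libraries. The midpoint lay inside a protein-coding gene in 49.3% ± 0.25 and 62.6% ± 0.025 of cases. SKBR3-only islands were therefore the more distal class against shared islands, by more than the spread between replicates in each of these measures. Against BT474-only islands the order depended on the measure, since beyond 100 kb of a protein-coding start lay 19.7% ± 0.25 of the SKBR3-only islands and 28.5% ± 0.026 of the BT474-only islands.

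The SKBR3-only share varied over the chromosomes. It was highest on chromosome 9 (29.5% ± 0.19), chromosome 6 (28.4% ± 1.36), chromosome 20 (28.1% ± 0.13) and chromosome 1 (28.0% ± 0.22). It was lowest on chromosome 18 (13.1% ± 0.54), chromosome 8 (13.9% ± 0.36) and chromosome 14 (16.2% ± 0.0029). Chromosome 9 lay above chromosomes 20 and 1 by more than their SDs, the spread on chromosome 6 spanned these values, and the step to the lowest group was larger than any spread. Chromosome 8 stood apart in its reads, since SKBR3 islands there held 1.98 times the genome's reads per kb, against 1.02 times in BT474. Its part in the low share was not tested. Chromosome 20 had 712 SKBR3-only islands over 3179.6 kb with a median of 41.3 reads per kb, the highest of the autosomes and X. Reads per kb of all islands on chromosome 20 were 1.22 times the genome's value in SKBR3 and 1.52 times in BT474.

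The widest SKBR3-only islands clustered on chromosome 20, which held 8 of the 10. The widest covered 171.4 kb at chr20:52653001-52824400, over CYP24A1, the enzyme that inactivates vitamin D, and part of BCAS1, a gene named for its amplification in breast cancer. It held 18384 reads in replicate 1, and the matching island of 181.6 kb in replicate 2 held 18707. The next, at chr20:51871601-51972000, covered 100.4 kb of the zinc-finger gene TSHZ2 with 8052 reads. A further island of 55.2 kb lay in BCAS1, and islands of 35.2 and 33.2 kb lay near DOK5, an adaptor of receptor tyrosine kinases. The pair outside chromosome 20 lay at OSBPL3 (32.2 kb), a lipid-binding protein gene, and in PDE4D (26.8 kb), a cyclic AMP phosphodiesterase. Reads per kb of these 10 islands ran from 37.01 in PDE4D to 107 at CYP24A1.

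The densest SKBR3-only islands of at least 1 kb were on chromosome 8. The island nearest to ZFHX4 held 212 reads per kb in replicate 1 and 191 in replicate 2. The islands at LACTB2 (183 and 192), near CALB1 (180 and 173) and near TRPS1, a repressor of the GATA family (166 and 153), followed. These 4 sit on the chromosome with the highest reads per kb of SKBR3 islands, at 1.98 times the genome's value. The median SKBR3-only island of chromosome 8 was not dense. It held 37.5 reads per kb, against 37.8 for all SKBR3-only islands of replicate 1. The others of the densest 10 lay at CASC3 (139), at the tyrosine kinase gene SRC (135), near TFEC (126), near the importin gene KPNA2 (124), near WIPF2 (117) and near OXSR1 (112). For CASC3 and WIPF2 the island of replicate 2 was far wider, at 22.2 and 21.8 kb against 3.8 and 2.4 kb in replicate 1.

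Some SKBR3-only islands came in runs, in stretches where BT474 had no island over long distances. There were 228 such stretches of at least 300 kb with an SKBR3-only island, and they held 995 of the islands (5.77%). The longest run in number was on chromosome 3, at chr3:32470801-33109200, where 36 SKBR3-only islands covered 153.8 of 638.4 kb. Within gene bodies, 6 lay in the RNA-binding ligase gene TRIM71, 5 in the dynein subunit gene DYNC1LI1, 3 in CNOT10, 2 each in GLB1 and CMTM6, and 1 in CMTM7, the last pair encoding membrane proteins of the chemokine-like factor family. Islands within 1 Mb on either side had 0.993 times the genome's reads per kb in SKBR3 and 0.944 times in BT474. These values are for the islands on either side and not for the stretch itself. The stretches described here and the genes in them were chosen after their values were seen. HER2 peaks were listed at 0 in the chromosome 3 stretch in each of the 4 HER2 lists.

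Around 3 stretches on chromosome 20, reads per kb were higher in both lines than around the chromosome 3 stretch. At chr20:50933601-52126400, 21 SKBR3-only islands covered 338 kb around TSHZ2, with 22751 reads in replicate 1 and 23213 in the islands of replicate 2 that they met. At chr20:52544801-52867200, 5 islands covered 280.2 of 322.4 kb over BCAS1, CYP24A1 and PFDN4. At chr20:52890601-54512400, 10 islands covered 127.2 kb near DOK5. Between the first and the second of these stretches BT474 carried wide islands of its own. BT474 islands within 1 Mb of the 3 stretches had 2.38, 3.13 and 2.45 times the genome's reads per kb, and SKBR3 islands 1.66, 1.77 and 1.80 times. BT474 HER2 peaks were also at 0 in all 3 stretches and both treatments, although BT474 EGF peaks numbered 9.47 per Mb over the genome. SKBR3 HER2 peaks were listed in the first (2 after vehicle and 3 after EGF) and in the last (8 and 9). Per the methods of the study, regions with a high input signal were removed from the lists of each line separately. Whether BT474 islands were removed from these stretches, or from the chromosome 3 stretch above, was not tested.

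Other long runs did hold BT474 HER2 peaks. At chr18:5297801-6509400, 18 SKBR3-only islands, 14 of them in L3MBTL4, lay beside 24 BT474 EGF peaks and 1 SKBR3 EGF peak. At chr20:6104601-7873600, which holds the growth factor gene BMP2, there were 16 islands and 24 BT474 EGF peaks. At chr11:128018601-128711800, with the ETS family genes ETS1 and FLI1, there were 16 islands and 7 BT474 EGF peaks. At chr20:35490401-36145800, around SRC, the cell cycle regulator gene RBL1 and 8 other genes, there were 30 islands and 7 BT474 EGF peaks. Over all 228 long stretches BT474 EGF peaks numbered 4.76 per Mb, against 9.47 over the genome. In 22 of them the BT474 EGF list had no peak, and these held 150 of the SKBR3-only islands (0.87%).

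**Figure D3:**
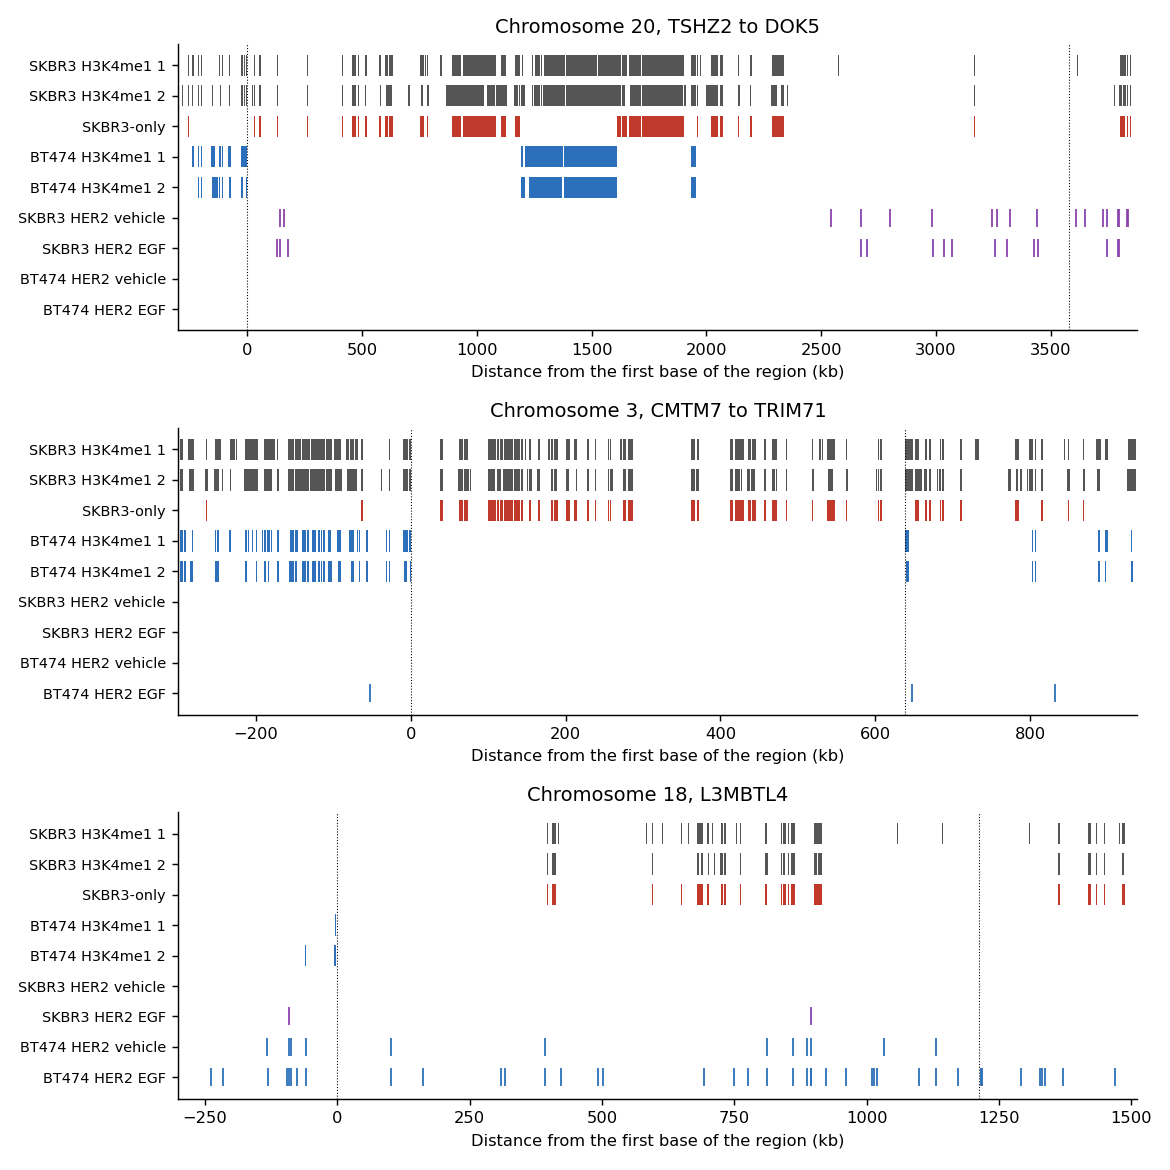
Islands and HER2 peaks in 3 regions, by distance in kb from the first base of the region, which the dotted lines bound. Bars are H3K4me1 islands (grey and blue, with the replicate number; red, SKBR3-only) and ticks are HER2 peaks; in the upper panel, the BT474 rows of HER2 are empty and BT474 islands sit between runs of red, in the middle panel all HER2 rows are empty inside the region, and in the lower panel 24 BT474 EGF peaks lie among 18 red islands.

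Of the 20163 protein-coding genes, 5266 (26.1%) held an SKBR3-only island in the gene or the 10 kb before it. From replicate 2 there were 5205, and 4967 genes were found both ways. Genes with such an island were longer, with a median window of 75.1 kb against 30.1 kb for the others, so long genes lead any count. GALNT17, a member of the family that starts O-linked glycosylation, held 39, and islands there covered 286.6 and 292.5 kb in SKBR3 against 13.8 and 13.0 kb in BT474. ELMO1, which works with DOCK proteins to activate Rac, held 33, with 304.2 and 333.6 kb covered in SKBR3 and 70.6 and 63.4 kb in BT474. DOCK4, an activator of Rac and Rap, held 22, with 195.9 and 201.3 kb against 49.6 and 41.2 kb. Higher cover in SKBR3 follows from how these genes were picked and is given as a description. The others among the first 10 were PALM2AKAP2 (26), the fragile-site gene FHIT (20), the RAS regulator gene RASAL2 (19), the BMP receptor gene BMPR1B (18), the proteoglycan enzyme genes CHST11 and XYLT1 (17 each) and the retinoic acid receptor gene RARB (17). FHIT, with a window of 1514 kb, was also covered in BT474, by 83.0 and 85.2 kb against 170.4 and 164.8 kb in SKBR3.

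There were 552 genes (2.74% of all) with an SKBR3-only island and no BT474 island in the gene or the 10 kb before it. L3MBTL4, which encodes a chromatin protein with MBT repeats, held the most, with 14 islands and 66.6 and 59.2 kb covered in the SKBR3 replicates. The metalloprotease gene ADAM19 held 11, with 61.3 and 68.5 kb. TSHZ2 held 10, with 256.5 and 284.9 kb, in the chromosome 20 stretch described above. AGPAT4, an acyltransferase of phospholipid synthesis, and PIK3CD, the delta catalytic subunit of PI3-kinase, held 8 each. NDRG3 held 7, and the transcription factor gene ETS1, DYNC1LI1, MANBAL and TRIM71 held 6 each. ETS1 was covered by 46.6 and 41.2 kb in SKBR3. By the choice of these 10 genes, the BT474 cover was 0 kb in both replicates.

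The ERBB family and its ligands were followed as a list of 15 genes, of which 6 (40%, against 26.1% of all protein-coding genes) held an SKBR3-only island, with a median window of 111 kb. NRG2, a ligand of ERBB3 and ERBB4, held 5 over 38.0 kb. Its cover was 67.6 and 78.2 kb in SKBR3 and 9.8 and 4.0 kb in BT474. EGFR, the receptor for EGF, held 2 over 20.2 kb and was covered by 125.7 and 126.1 kb in SKBR3 and by 41.8 and 37.4 kb in BT474. The ligand genes EGF and HBEGF held 2 each, and HBEGF was covered by 15.4 and 17.4 kb against 5.4 and 5.8 kb. The genes were named for their SKBR3-only islands, which favours SKBR3 cover. Over the 15 genes, cover was higher in SKBR3 in 5, higher in BT474 in 6 and overlapping in 4. NRG3, another ligand of ERBB4, had 0 kb in SKBR3 and 81.2 and 90.6 kb in BT474. ERBB4, like NRG3 named after its values were seen, had 1 SKBR3-only island and 27.8 and 30.8 kb covered in SKBR3 against 163.1 and 164.7 kb in BT474.

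Of 19 other receptor tyrosine kinases, 9 (47.4%, against 26.1% of all genes) held an SKBR3-only island. The median window over the 19 was 79.0 kb. Cover was higher in both SKBR3 replicates in 10 of the 19 and higher in both BT474 replicates in 6. FGFR2, a receptor for fibroblast growth factors, held 6, with 60.6 and 61.6 kb covered in SKBR3 and 5.6 and 8.6 kb in BT474. ROR1, a receptor for WNT5A, held 8, with 41.8 and 40.2 kb against 13.0 and 14.8 kb. PDGFRB, a platelet-derived growth factor receptor, held 4, with 25.4 and 34.6 kb against 3.0 kb in each BT474 replicate. DDR2, a collagen receptor, held 2. These genes were named for their SKBR3-only islands, which favours SKBR3 cover. RET, the receptor for GDNF family ligands, named after its values were seen, had 0 and 6.2 kb in SKBR3 and 27 and 24.6 kb in BT474.

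Among 16 retinoid and nuclear receptor genes, 8 (50%, against 26.1% of all genes) held an SKBR3-only island from replicate 1 and 6 from replicate 2. Cover was higher in SKBR3 in 8 of the 16 and higher in BT474 in 4. RARB held 17, with 191.0 and 191.6 kb covered in SKBR3 and 92.2 and 85.4 kb in BT474. NR3C1, the glucocorticoid receptor gene, held 10, with 83.2 kb covered in each SKBR3 replicate against 22.2 and 23.4 kb. The thyroid hormone receptor gene THRB held 9 and PPARG, a receptor for fatty acids, held 8. PPARG varied between SKBR3 replicates, with 55.1 and 37.8 kb against 14.8 and 13.0 kb in BT474.

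Basal and mesenchymal genes held SKBR3-only islands in 8 of 16 cases (50%, against 26.1% of all genes). Over the whole list, 9 genes had more cover in both SKBR3 replicates than in either BT474 replicate and 6 the reverse, among them CDH3 (0 kb in SKBR3, 20 kb in each BT474 replicate) and ZEB1 (0 kb against 15.4 and 19.2 kb), both named after their values were seen. TGFB2, a growth factor of the TGF-beta family, held 4, with 89.3 and 85.3 kb covered against 31.0 and 30.2 kb in BT474. CD44, the hyaluronan receptor, and the transcription factor gene ZEB2 held 2 each. Among 12 keratin genes, 4 (33.3%, against 26.1% of all genes) held an SKBR3-only island, and cover was higher in SKBR3 in 9 and in BT474 in 2. The basal keratin genes KRT17 and KRT14 had no BT474 island, with 6.5 and 7.5 kb covered in SKBR3 for KRT17 and 3.9 kb in each replicate for KRT14. KRT6B, also a basal keratin gene and named after its values were seen, went the other way. It had 0 kb in SKBR3 and 3.4 and 3.6 kb in BT474. KRT5 and KRT8 held 1 each, and KRT8, a luminal keratin, was covered in BT474 as well, by 36.6 kb in each replicate.

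Epithelial adhesion genes held such islands in 8 of 14 cases (57.1%, against 26.1% of all genes). Cover was higher in SKBR3 in 7 genes of the list and higher in BT474 in 7. The latter include CDH1, the gene for E-cadherin, named after its values were seen, with 0 kb in SKBR3 and 59.8 and 64.2 kb in BT474. CTNNA1, which links cadherins to actin, held 7, with 221.3 and 217.3 kb covered in SKBR3 and 143.8 and 139.4 kb in BT474. The tight junction gene CLDN4 and the desmosome gene PKP1 held 2 each, JUP held 1, and the desmosome gene PKP3, named after its values were seen, had 2.6 and 3.0 kb in SKBR3 and no BT474 island. In the list of AP-1 and EGR factors, 4 of 13 genes (30.8%, against 26.1% of all genes) held an SKBR3-only island from replicate 1. From replicate 2 there were 2 such genes. Cover was higher in SKBR3 in 4 of the 13, higher in BT474 in 2 and overlapping in 7. ATF3, a stress-induced partner of AP-1, held 4, with 48.5 and 57.1 kb covered against 15.0 and 14.0 kb. BATF and FOSL2 held 1 each.

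The remaining lists held SKBR3-only islands in shares from 20% to 33.3%, against 26.1% over all genes. Of 15 genes of the oestrogen receptor and its targets, 3 (20%) held an SKBR3-only island, namely ESR1 with 4, RARA with 2 and BCL2 with 1. ESR1, the receptor gene, was covered by 94.4 and 90.4 kb in SKBR3 and by 125.8 and 131.2 kb in BT474. BCL2 was covered by 7.8 and 8.4 kb against 47.8 and 46.8 kb. Of 14 luminal transcription factors, 3 (21.4%) held one, with TFAP2B (2), KLF5 (1) and TFAP2A (1). Of 13 androgen receptor and apocrine genes, 4 did (AZGP1, NDRG1, CYP4Z1 and TMPRSS2, with 1 each), of 13 fatty acid synthesis genes, 3 (ACLY and ELOVL6 with 3 each, SREBF2 with 1), and of 12 inhibitors of EGF signalling, 4 (SPRED1 with 3, ERRFI1, RASA1 and SOCS3 with 1 each). The median gene held 0 kb of SKBR3-only island in each list except the adhesion (1.8 kb), basal and mesenchymal (0.7 kb) and nuclear receptor (0.5 kb) lists, and 0 kb over all protein-coding genes. Median windows ran from 15.8 kb for keratins to 111 kb for the ERBB list, so these shares cannot be read apart from gene length.

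Motif letters were counted in the middle 1 kb of each island, on both strands, so that the windows had the same length in every class. The AP-1 letters TGAGTCA were found in 22.9% ± 0.27 (SD, n = 2) of SKBR3-only windows, 20.01% ± 0.15 of windows in all 4 libraries, 20.9% ± 0.34 over all SKBR3 islands and 17.3% ± 0.097 of BT474-only windows. The TEAD letters GGAATG were found in 51.8% ± 0.053, 47.02% ± 0.013, 48.3% ± 0.17 and 43.3% ± 0.097. SKBR3-only windows thus had the highest shares of both, by more than the spread between replicates. The same letters written backwards, which keep the base composition, gave 14.8% ± 0.19, 14.4% ± 0.0041 and 14.9% ± 0.039 for AP-1 in SKBR3-only, shared and BT474-only windows, and 26.7% ± 0.0086, 26.3% ± 0.098 and 25.9% ± 0.22 for TEAD. Backwards letters therefore differed by less than 1 percentage point between these classes.

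GATA and forkhead letters showed the opposite order. AGATAA, bound by GATA factors such as GATA3, was in 48.4% ± 0.13 of SKBR3-only windows, 50.2% ± 0.10 of windows in all 4 libraries and 61.3% ± 0.14 of BT474-only windows. Backwards, the shares were 48.1% ± 0.088, 46.2% ± 0.060 and 53.2% ± 0.35, so letters of this composition were themselves more frequent in BT474-only windows. TGTTTAC, bound by forkhead factors such as FOXA1, was in 16.7% ± 0.020, 19.0% ± 0.10 and 24.3% ± 0.16, and backwards in 22.1% ± 0.0067, 21.9% ± 0.012 and 25.3% ± 0.11. The TFAP2 letters GCCNNNGGC were in 22.6% ± 0.067, 21.7% ± 0.018 and 17.8% ± 0.22, and backwards in 1.89% ± 0.072, 2.42% ± 0.022 and 2.86% ± 0.053. The full palindromic oestrogen response element was rare, in 0.058% ± 0.016, 0.072% ± 0.0097 and 0.165% ± 0.0043. Its letters backwards were in 0.217% ± 0.0026, 0.191% ± 0.035 and 0.119% ± 0.0069. For both motifs the backwards letters ran in the opposite order over the classes. These matches are letters in the sequence and not measured binding.

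The windows of SKBR3-only islands and of islands in all 4 libraries had nearly the same base composition, with a median GC content of 42.8% and 42.6%, whereas BT474-only windows had 39.4% from replicate 1 and 39.5% from replicate 2. Restricting the count to islands more than 10 kb from a protein-coding start site gave TGAGTCA in 23.5% ± 0.31 of SKBR3-only, 21.4% ± 0.13 of shared and 18.4% ± 0.19 of BT474-only windows, and GGAATG in 52.4% ± 0.093, 48.1% ± 0.31 and 44.01% ± 0.11. The order was unchanged for both motifs among these distal islands. Island width differed between the classes, and the motif counts were not repeated at a fixed width.

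**Figure D4:**
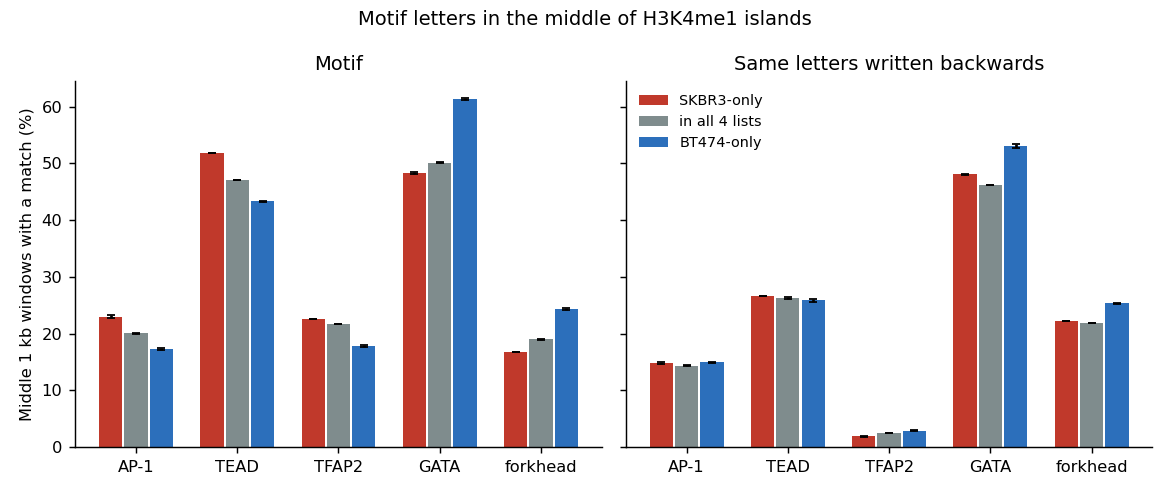
Percentage of middle 1 kb windows with at least 1 match on either strand, for the motif letters (left) and the same letters backwards (right), by class of island. Bars are means over replicate 1 and 2 and error bars are 1 SD; SKBR3-only islands are highest for AP-1 (22.9%) and TEAD (51.8%) and lowest for GATA (48.4%) and forkhead (16.7%).

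Few H3K4me1 islands held a HER2 peak, SKBR3-only or not. In replicate 1, an SKBR3 EGF peak lay in 0.487% of SKBR3-only islands and in 0.519% of all SKBR3 islands. A BT474 EGF peak lay in 3.74% and 4.74%. Of the SKBR3-only islands, 95.9% held no peak of any HER2 list, and 11 held a peak of each of the 4 lists. SKBR3-only islands met 84 of the SKBR3 EGF peaks (3.33%, 95% Wilson interval 2.70 to 4.11%), 93 of the SKBR3 vehicle peaks (3.58%), 671 of the BT474 EGF peaks (2.29%) and 210 of the BT474 vehicle peaks (2.45%). BT474 peaks were thus found in islands that BT474 itself did not list. Each HER2 list is a single sample, so none of these counts has a replicate of the HER2 assay.

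Per Mb of island, SKBR3 EGF peaks numbered 1.52 in SKBR3-only islands (exact Poisson interval 1.22 to 1.89), 1.15 in islands of all 4 libraries (1.02 to 1.299) and 0.816 in BT474-only islands (0.625 to 1.05), against 0.814 over the genome. SKBR3 vehicle peaks numbered 1.69 (1.36 to 2.07), 1.09 (0.962 to 1.24) and 0.964 (0.754 to 1.21), against 0.839 over the genome. For EGF the interval of SKBR3-only islands overlapped that of shared islands and not that of BT474-only islands, and for vehicle it overlapped neither. Among islands 2 to 4 kb wide, the EGF values were 1.52 (1.09 to 2.08), 1.25 (0.958 to 1.60) and 0.893 (0.602 to 1.27), and the vehicle values 1.45 (1.02 to 1.99), 1.01 (0.748 to 1.33) and 0.863 (0.578 to 1.24). At that width all intervals overlapped, and the differences between classes were not tested. BT474 EGF peaks showed no such order, with 12.2 per Mb (11.3 to 13.1) in SKBR3-only islands, 11.3 (10.8 to 11.7) in shared islands and 12.2 (11.4 to 13.0) in BT474-only islands. Over the genome they numbered 9.47 per Mb.

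**Figure D5:**
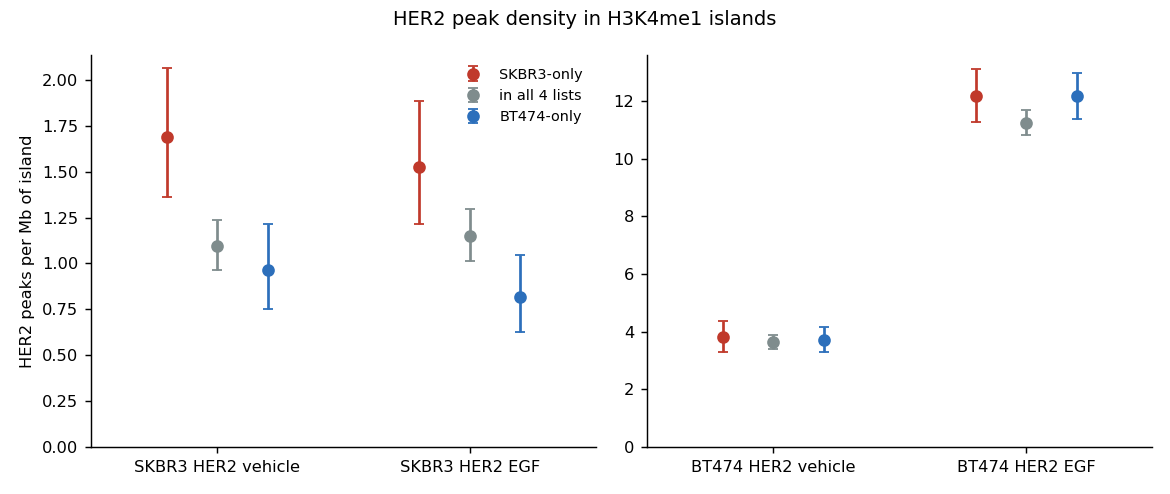
HER2 peaks per Mb of H3K4me1 island (vertical axes, from 0) for the SKBR3 lists (left) and the BT474 lists (right), in the islands of replicate 1. Points are the values and bars are exact Poisson 95% intervals for counting error; SKBR3 peaks run from 1.52 and 1.69 per Mb in SKBR3-only islands down to 0.816 and 0.964 in BT474-only islands, while the BT474 EGF values lie at 12.2, 11.3 and 12.2.

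The SKBR3 EGF peaks inside SKBR3-only islands were set beside those elsewhere, without a test. The 84 SKBR3 EGF peaks had a median score of 128, against 129.25 for the 2436 others, on the authors' scale, whose unit is not stated. Of the 84, 88.1% (79.5 to 93.4%) were also listed in BT474 EGF, against 84.6% (83.1 to 86.0%) elsewhere, and 14.3% (8.37 to 23.3%) in SKBR3 vehicle, against 13.3% (11.97 to 14.7%). The 101 bases around the midpoint held the core CGTNTGC in 10 of the 84 (11.9%, 6.60 to 20.5%) and in 11.99% (10.8 to 13.3%) of the others. All these intervals overlapped.

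The highest of the 84 scores was 650, rank 46 of its list, at chr2:33327767-33328320 in an intron of LTBP1, which binds latent TGF-beta. Its island held 646 and 619 reads in the SKBR3 replicates. Next came a peak in an intron of the natriuretic peptide receptor gene NPR3 (558.5) and an intergenic peak 135.9 kb from NAMPT, an enzyme of NAD synthesis (552). The SMCO4 peak printed above, at chr11:93231937-93232351, scored 455 and lay 0.166 kb from a start site of that gene. Others among the highest 10 were near EGLN2, an oxygen-sensing prolyl hydroxylase (444), at an exon where the retinol dehydrogenase gene RDH12 and ZFYVE26 overlap (364), and intergenic near AOC1 (335), KPNA7 (333) and MYEOV (294.5). The RDH12 peak also held the core. All 10 sites were listed in both BT474 HER2 lists, and those at NPR3, SMCO4 and KPNA7 in SKBR3 vehicle. None of these sites with a high HER2 score in SKBR3-only H3K4me1 was therefore particular to SKBR3 in the HER2 lists. Most SKBR3 EGF peaks elsewhere were also listed in BT474, 84.6% in its EGF list and 62.2% in its vehicle list. Peaks elsewhere with scores as high were not counted apart.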

How the data were processed

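SKBR3 and BT474 islands of H3K4me1 (2 replicates per line) and 4 HER2 ChIP-exo lists were used. Samples were grouped by the line, treatment and antibody in their labels. Input samples were not analysed here. Per the methods of the study, single-end reads were aligned to hg19 by bowtie2, poorly mapped reads were dropped, islands were called by SICER and HER2 peaks by MACS2 against input DNA of the same line, and blacklisted regions and regions of high input in that line were taken out. The submitters' processing notes instead list BWA 0.5.9 and MACS 1.4.1 beside SICER 1.1 with build GRCh37, and this difference could not be settled. The authors deposited a count of whole reads per island, unscaled, and for HER2 a score per peak on an unstated scale. These lists have no header, and their island ends count the last base.

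Overlap meant at least 1 bp. Genes and start sites were those of GENCODE release 44 on GRCh37 (64449 genes, 221300 start sites). A gene's window was its body and 10 kb before it. Class values were counted once from replicate 1 and once from replicate 2 and are given as mean ± SD (n = 2). Intervals are 95% Wilson for shares and exact Poisson for densities and cover counting error only. No test was made, because presence in the lists chose the islands and an exact permutation test of 2 against 2 libraries cannot pass the usual threshold. Reads limit the precision per island, and no file gives the depth of HER2 libraries. Stretches are gaps between neighbouring BT474 islands of either replicate. Dense bins were 1 Mb bins with at least 2 times the median SKBR3 reads per kb of island. Interval counts were tested on simulated data. Python 3.11.15, pandas 2.3.3 and pysam 0.24.0 were used.

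The genes named were those of the 10 widest and 10 densest islands, the 10 genes with the most islands, the 10 with the most and no BT474 island, at most 4 genes per list, and the 10 highest SKBR3 EGF peaks. Members of a list beyond these are given by counts or by name without values. Exceptions are the checks of the lines and the genes marked as named after their values were seen. A few genes that this rule would name are not reported here. The islands, gene lists and motifs were chosen with earlier results of these data known.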

Additional observations from a re-analysis of the deposited data

How the results depend on the processing

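Alternatives are counted here as pairs of a result and another setting, and most settings were run for every result. There were 63 such pairs, and 7 more chosen after seeing the data. Of the 70 pairs, 56 left a count within 1.5 times or another value within 1 SD of the 2 replicate countings. That SD comes from the same 2 countings, so taking islands from replicate 2 must exceed it. Leaving out few islands cannot move the island count 1.5 times. The tally therefore includes outcomes that were fixed in advance. The number of SKBR3-only islands, of protein-coding genes within 10 kb and of SKBR3 EGF peaks stayed within 1.5 times of 17236, 4395 and 84 in each alternative run. Leaving out each replicate gave 18454 to 22000 islands, 4705 to 5251 genes and 88 to 97 peaks. The median width of 2600 bp became 2800 bp with islands taken from replicate 2 and 2800 bp with at least 50 reads, and 2400 to 2600 bp with 1 replicate left out. The median of 37.8 reads per kb became 36.7 with islands from replicate 2 and 35.8 to 37.9 with 1 replicate left out. The share within 1 kb of a start site, 19.4%, became 19.7% with islands from replicate 2, 19.7% when up to 10% could be covered by BT474, 18.3% for islands of 2 to 4 kb, 11.6% with protein-coding start sites and 18.6 to 20.6% with 1 replicate left out. Without the 150 islands in long stretches that also lacked BT474 EGF peaks, 17086 islands and all 84 peaks remained. Outside the 19 dense bins there were 17196 islands. No paired analysis was possible because the results come from no test. Read depth limits which islands a list can hold, and an unlisted BT474 island is not evidence of an absent mark.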

Other observations

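Among BT474 HER2 peaks, the core CGTNTGC had a higher share inside SKBR3-only islands than elsewhere. After vehicle it lay within 50 bp of the midpoint in 34 of 210 peaks (16.2%, 95% Wilson interval 11.8 to 21.8%) against 11.9% (11.3 to 12.6%) of the other 8349. After EGF the shares were 9.84% (7.81 to 12.3%) of 671 and 7.42% (7.12 to 7.73%) of 28655. The vehicle intervals overlapped and the EGF intervals did not. At SKBR3 peaks the shares inside and elsewhere were 11.9% and 11.99% after EGF and 5.38% and 3.40% after vehicle, with overlapping intervals. Peaks elsewhere lay mostly outside all SKBR3 islands, and peaks in shared or BT474-only islands were not counted apart. The lists share sites, so these are not independent counts, and no test was made. Over the middle 1 kb windows the core was in 10.2% ± 0.098 of SKBR3-only, 10.7% ± 0.24 of shared and 9.70% ± 0.012 of BT474-only islands (SD, n = 2).

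RUNX and ETS letters did not set SKBR3-only islands apart from shared ones. TGTGGT, bound by RUNX factors, was in 51.3% ± 0.096 of SKBR3-only and 51.2% ± 0.078 of shared windows, against 48.5% ± 0.096 of BT474-only windows. CCGGAAG, bound by ETS factors, was in 3.40% ± 0.15, 3.34% ± 0.044 and 2.66% ± 0.046. Another stretch without any BT474 island or BT474 HER2 peak, at chr9:6552801-7146400 over the glycine decarboxylase gene GLDC and the histone demethylase gene KDM4C, held 15 SKBR3-only islands over 53.8 kb. BT474 islands within 1 Mb of it had 0.572 times the genome's reads per kb, and SKBR3 islands 0.795 times.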
